A study of Mus musculus with 2 samples.

Results

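The Eph receptors and ephrins considered here are 10 genes of the mouse small-intestinal crypt, chosen by name: the receptors Ephb2, Ephb3, Ephb4, Ephb6, Epha1 and Epha2 and the ligands Efnb1, Efnb2, Efna1 and Efna4. The array annotation gave 9 of the 10 at least 1 probe set, 17 probe sets in all of the 34945 that carry a single gene symbol. No probe set carried the symbol Ephb2, so that gene was not analysed here. Of the 9, 8 had a signal above the floor used for low values (92.9 units) on both arrays, and Ephb6 lay below it on both. Across the array 18193 genes were named and 11496 were measured, that is, above the floor on at least 1 array.

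Crypts came from mice homozygous for a floxed allele of Lpcat3 (Lpcat3 F/F, called control) and from mice that also carried Villin-CreERT2 (called knockout), a Cre recombinase under the Villin promoter that acts in intestinal epithelium once tamoxifen is given. Lpcat3 encodes an acyltransferase that attaches polyunsaturated fatty acids to membrane phospholipids. The mice of either group were aged 8 to 10 weeks, were given 1 mg tamoxifen a day for 5 days, and crypts were collected 2 weeks after. RNA of 5 mice was pooled for each genotype and each pool was read on 1 array. There was therefore no replicate, no p-value is given, and what the deletion, the transgene, the pool and the array each contribute cannot be told apart.

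Eph receptors are receptor tyrosine kinases, and their ephrin ligands are themselves tied to the membrane of a neighbouring cell, the A class by a lipid anchor and the B class by a transmembrane segment. Contact signals in both directions, forward through the receptor and in reverse through the ligand, and often ends in repulsion of the cells. In the intestine beta-catenin and TCF drive EphB2 and EphB3 at the crypt base, where EphB3 keeps Paneth cells at the bottom, while ephrin-B1 and ephrin-B2 increase towards the villus. The opposed gradients hold the cell types in their places along the crypt.

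The sequences below are the 250 bases before the annotated start of the 2 genes that differed by at least 1.5-fold, Ephb3 and Epha2, and of Efna4, which came closest to that fold among the others. They are shown because the first of these is known as a beta-catenin/TCF target, and they are taken from the RefSeq promoter table (build GRCm38.p6), written from 5′ to 3′ along the gene. Capitals mark matches to the TCF/LEF core, searched on both strands as CTTTGAA or CTTTGAT or CTTTGTA or CTTTGTT.
Ephb3 (chr16:21204545-21204794, plus strand): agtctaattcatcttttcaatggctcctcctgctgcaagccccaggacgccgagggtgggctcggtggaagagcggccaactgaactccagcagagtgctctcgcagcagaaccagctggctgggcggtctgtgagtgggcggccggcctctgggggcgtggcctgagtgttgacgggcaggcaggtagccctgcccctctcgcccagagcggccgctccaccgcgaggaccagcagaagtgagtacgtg
Epha2 (chr4:141300971-141301220, plus strand): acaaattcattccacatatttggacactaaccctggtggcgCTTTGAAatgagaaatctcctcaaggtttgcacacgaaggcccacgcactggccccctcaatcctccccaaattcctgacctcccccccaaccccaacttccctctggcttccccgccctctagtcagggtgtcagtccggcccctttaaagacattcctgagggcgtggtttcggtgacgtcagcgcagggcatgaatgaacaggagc
Efna4 (chr3:89338029-89338278, minus strand): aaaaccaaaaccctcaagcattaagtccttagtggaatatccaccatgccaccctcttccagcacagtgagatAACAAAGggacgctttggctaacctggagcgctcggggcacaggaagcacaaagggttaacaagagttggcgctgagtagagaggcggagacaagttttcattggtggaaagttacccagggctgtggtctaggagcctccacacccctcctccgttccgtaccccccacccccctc
The Ephb3 stretch holds none of these letters. That of Epha2 holds CTTTGAA, whose first base is 209 bases before the start, and that of Efna4 holds AACAAAG, the reverse complement of CTTTGTT, 177 bases before it. All 10 genes matched the table, with 11 promoters between them, of which 2 held a match. A match was present in 14.8% of all 32851 promoters listed. The GC content of the 11 lay between 54.4% and 76.8%, and the median of all promoters was 52.4%. A match here, or its absence, describes letters only, and bases outside these stretches were not searched.

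The target of the deletion was lower on the knockout array, where Lpcat3 read 928 against 4691 on the control array (log2 ratio -2.34). Both arrays had been scaled to the same trimmed mean of 500.003 units. The error of a log2 ratio was taken from genes with several probe sets (4582 genes) and had an SD of 0.28. It holds nothing of how mice or pools vary. All 8 epithelial markers checked were measured and within 1.5-fold, among them Epcam (25413 in control and 25300 in knockout) and Vil1, which names the Cre driver (14737 and 17444).

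The Eph genes did not move as a block. Of the 8 measured, 5 were higher and 3 lower in the knockout pool, where 55.1% of all measured genes were lower. The split is loose, because 3 of the 8 (Ephb4, Efna1 and Efnb1) were within 1 probe-set SD of no difference. The median log2 ratio of the 8 was 0.12, where that of all measured genes was -0.042. A difference of at least 1.5-fold was seen in 1 gene in each direction: Ephb3 was lower and Epha2 higher. The other 6 were within that fold, as were 86.5% of all measured genes. Among all measured genes 8.74% were lower by this fold or more and 4.76% were higher, and with 8 genes a count of 1 is near both shares. None of the 8 reached 2-fold, where 2.32% of measured genes were lower and 1.41% higher. By probe set, 12 of 17 were above the floor on both arrays, 8 of them higher and 4 lower (54.5% of all probe sets measured were lower), with a median of 0.040.

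**Figure D1:**
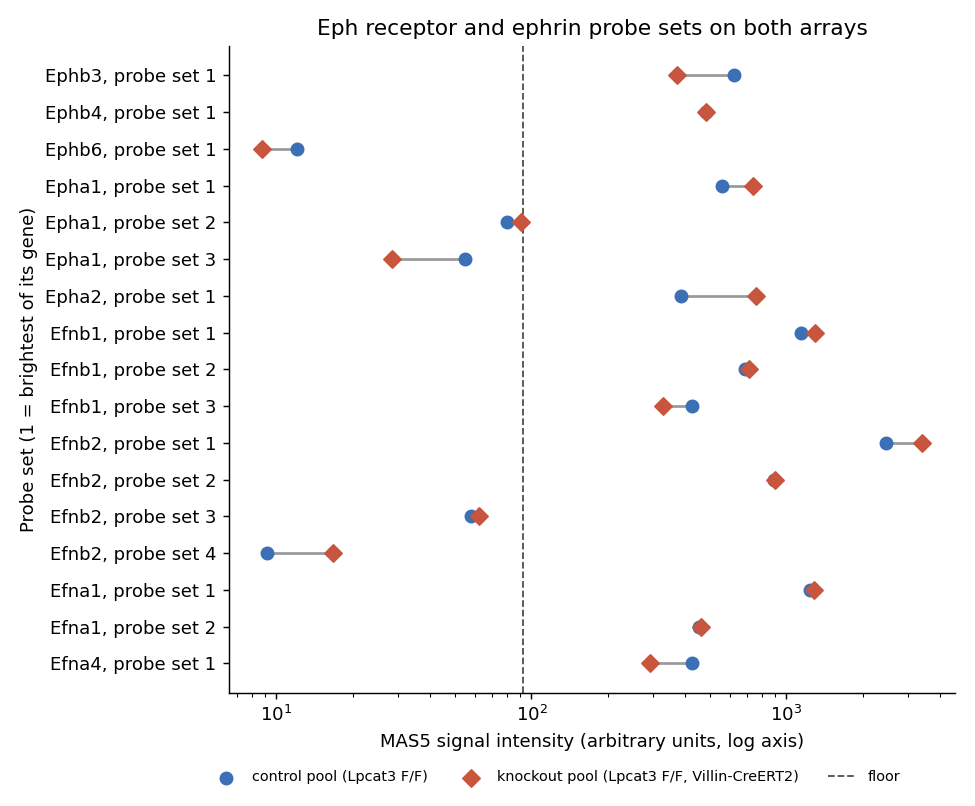
MAS5 signal (arbitrary units, log axis) of the 17 probe sets of the Eph receptors and ephrins, control pool as blue circles and knockout pool as red diamonds, 1 array each, joined by a grey line, with the floor of 92.9 dashed. The red diamond lies left of the blue circle for Ephb3 and Efna4 and right of it for Epha2, while 5 probe sets, among them that of Ephb6, lie left of the floor on both arrays.

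Among the B-class receptors, Ephb3 was the lower one. Its 1 probe set read 622 in control and 374 in knockout, which is 1.67-fold lower (log2 ratio -0.74). The knockout value was below the control value by 2.64 of the SDs found between probe sets, and 5.43% of measured genes had a lower ratio still. Ephb4, a receptor best known from veins and also made in intestinal epithelium, had 482 in both pools (482.4 and 482.3, log2 ratio -0.00043). Ephb6, which has a kinase domain without activity, had 12.0 in control and 8.78 in knockout, under the floor on both arrays, and no ratio is given. Of the 10 endothelial markers listed, 3 were measured, with a median of -0.10, and 7, among them Pecam1, Cdh5 and Tek, were under the floor on both arrays.

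The A-class receptors among the chosen genes both read higher in the knockout pool, Epha2 by more than 1.5-fold and Epha1 by less. Epha2, which responds to ephrin-A1 and also signals without ligand, went from 386 in control to 761 in knockout by its 1 probe set, a log2 ratio of 0.98 (1.97-fold). This is 3.51 of the probe-set SDs, and 1.44% of measured genes had a higher ratio. Epha1, the receptor that gave the family its name, went from 557 to 739 by its brightest probe set. That is a log2 ratio of 0.41 or 1.46 of the SDs, and 9.99% of measured genes had a higher ratio. The other probe sets of Epha1 (80.1 and 90.6 in control and knockout for one, 55.0 and 28.3 for the other) were under the floor on both arrays. The log2 ratio of Epha2 exceeded that of Ephb3 by 1.72, where the probe-set SD of a difference is 0.39. Epha2 and Ephb3 are the highest and lowest of the measured Eph genes, so this difference is the range of the group. That SD applies to a pair chosen beforehand and is no yardstick for a range.

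Both B-class ligands were within 1.5-fold and their probe sets did not give 1 answer. Efnb2, the partner of EphB receptors in the upper crypt and villus, had 2463 in control and 3416 in knockout by its brightest probe set, a log2 ratio of 0.47 (1.39-fold higher). Its next probe set read 891 and 901, a log2 ratio of 0.015, and the remaining pair lay under the floor. The mean over the 2 probe sets above it was 0.24.

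Efnb1, the other transmembrane ligand of the intestine, had 1138 in control and 1300 in knockout by its brightest probe set (log2 ratio 0.19). The second read 689 and 716 (0.057) and the third 427 and 327 (-0.39), so the direction of Efnb1 turns with the probe set and the mean of the 3 was -0.046. The range between these probe sets, 0.58, was larger than any of their ratios.

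Of the A-class ligands, Efna1 was alike in both pools by both probe sets and Efna4 was lower. Efna1 encodes a preferred ligand of EphA2, and it had 1233 in control and 1281 in knockout by its brightest probe set (log2 ratio 0.055). Its other probe set had 456 and 464 (0.025). Efna4, another lipid-anchored ligand, had 426 in control and 292 in knockout by its 1 probe set, a log2 ratio of -0.55 (1.46-fold lower), which is 1.96 of the probe-set SDs and just short of 1.5-fold. In 10.01% of measured genes the ratio was lower.

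**Figure D2:**
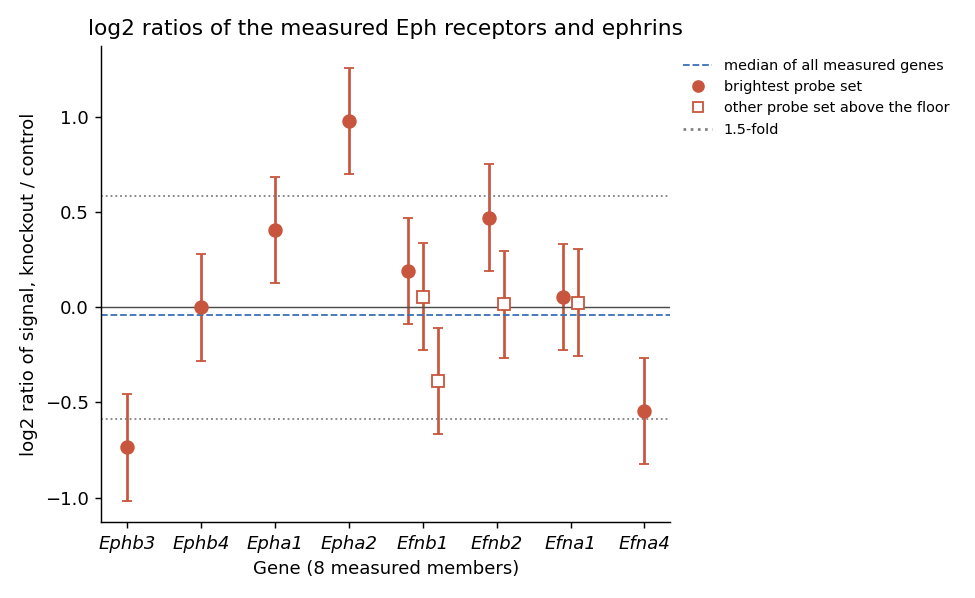
Log2 ratio of signal, knockout over control, for each probe set above the floor on both arrays (8 genes, 12 probe sets), filled for the brightest and open for the others, with bars of 1 SD (0.28) as found between probe sets that read 1 gene. Dotted lines mark 1.5-fold and the dashed line the median of all measured genes (-0.042). Ephb3 (-0.74) and Epha2 (0.98) lie outside the dotted lines, and the probe sets of Efnb1 lie on both sides of 0.

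In the rest of the family, 12 further genes of 22 were listed (14 receptors and 8 ligands in the whole family) and all had a probe set, but only 3 of the 12 were measured. Efna3, an A-class ligand, had 364 in control and 216 in knockout, a log2 ratio of -0.75 (1.69-fold lower), while its other probe set was under the floor on both arrays. Efnb3, the third transmembrane ligand, lay near the floor with 103 and 99.8 (-0.047). Epha4, a receptor that binds ligands of both classes, was read at 114 in control and 54.8 in knockout by its brightest probe set, so at least 1.23-fold lower. A second probe set of Epha4 was above the floor on the knockout array only (37.0 and 93.9), at least 1.01-fold higher, and its direction is not settled. Ephb1, Epha3, Epha5, Epha6, Epha7, Epha8, Epha10, Efna2 and Efna5 were under the floor on both arrays by every probe set.

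Downstream of the receptors, most genes of forward signalling were within 1.5-fold, as were 86.5% of all measured genes. Of 39 listed genes 33 were measured, 29 of them within 1.5-fold, with a median of -0.077. Of the 33, 4 were at least 1.5-fold lower and none at least 1.5-fold higher. Among all measured genes these shares were 8.74% and 4.76%, and the counts are near them. The lowest were Fyn, a Src family kinase that Eph receptors recruit (285 in control and 108 in knockout, log2 ratio -1.40, and -1.23 by its other probe set), Grb7, an adaptor that binds activated receptors (1503 and 725, -1.05), and Tiam1, an exchange factor for Rac (666 and 369, -0.85). The fourth was Vav3, at least 1.68-fold lower by its brightest probe set and at least 1.03-fold lower by another. Highest were the kinase gene Src (539 and 692, log2 ratio 0.36, and 0.42 by its other probe set), the adaptor gene Grb2 (0.36, but -0.46 by its other probe set) and Anks1 (0.24), whose protein binds Eph receptors. Fyn and Vav3 are also genes of T lymphocytes. Of 12 listed markers of T and natural killer cells 11 were measured. All 11 were at least 2-fold lower, as were 2.32% of all measured genes. Their median was -2.10 and their summed signal 45171 in control and 9498 in knockout. The part of these cells in the values of Fyn and Vav3 was not tested. In pooled tissue RNA, fewer cells of a type and less RNA per cell cannot be told apart.

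The measured genes of ephrin-B reverse signalling and of cleavage were all within 1.5-fold by their brightest probe sets. Of all measured genes 86.5% were, so with so few genes this is near that share. Of the 11 listed for reverse signalling 9 were measured, with a median of 0.058. Pard6b, a polarity protein that ephrin-B1 can bind, was highest (293 in control and 405 in knockout, log2 ratio 0.47, and 0.51 by its other probe set), with Rgs3, a regulator of G protein signalling that binds ephrin-B, at 0.14 and Dvl2 at least 1.09-fold higher. Other probe sets of Rgs3 gave -0.91 and -0.021. Lowest were Pard6g (-0.23), Pard6a (-0.23) and the adaptor gene Nck2 (-0.20, and at least 1.54-fold lower by another probe set). Of 10 genes of ectodomain cleavage and adhesion 9 were measured, with a median of 0.090. Adam10, the protease that cuts ephrins and E-cadherin at Eph contacts, had 4850 in control and 4642 in knockout (log2 ratio -0.063). Ctnnb1, beta-catenin, was at -0.049 (-0.25 and -0.20 by its other probe sets). Ctnnd1 was at -0.048 (-0.27 and 0.28 by its other probe sets). Psen2 (0.42), Adam17 (0.26) and Cdh1, E-cadherin (0.22), were highest.

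Ephb3 can be set beside other beta-catenin/TCF targets of the crypt base, which share its known driver. Of 14 listed 12 were measured, 11 of them lower and 5 at least 1.5-fold lower, with a median of -0.46. Among all measured genes 55.1% were lower, 8.74% by at least 1.5-fold, with a median of -0.042, and 4.76% were at least 1.5-fold higher. The marker counts below are to be read beside the same shares. The lowest were Lgr5, the stem cell receptor (814 in control and 171 in knockout, log2 ratio -2.25), Sox9, a transcription factor that Paneth cells need (646 and 326, -0.99), and Rnf43, a feedback inhibitor of Wnt receptors (650 and 358, -0.86). Highest were Ccnd1 (0.20), Nkd1 (at least 1.03-fold lower) and Tnfrsf19 (at least 1.10-fold lower). The ratio of Ephb3 (-0.74) lies between those of Axin2 (1305 and 773, -0.76) and Sp5 (241 and 145, -0.73). The 2 were named after their values were seen. Marker genes of several cell types read lower on the knockout array, those of the crypt base among them. All 9 markers of crypt base stem cells were lower, 5 by at least 1.5-fold (median -0.59, summed signal 57128 in control and 33818 in knockout). Lgr5, Ascl2 and Tnfrsf19 are in both this list and that of the beta-catenin/TCF targets. Of 8 measured Paneth cell markers 7 were lower, 5 by at least 1.5-fold (median -0.87, summed signal 114855 and 70771). All 7 measured tuft cell markers were lower, 6 by at least 1.5-fold (median -1.11, summed signal 4148 and 2060), and of 9 enteroendocrine markers 8 were lower, 5 by at least 1.5-fold (median -0.70, summed signal 13983 and 9165). Of 11 markers of cycling cells 10 were lower, 2 by at least 1.5-fold (median -0.29), and all 8 goblet cell markers were within 1.5-fold (median -0.13). Of 11 enterocyte markers 8 were higher, 3 by at least 1.5-fold and 1 at least 1.5-fold lower (median 0.20, summed signal 223787 and 265676). All 7 measured B and plasma cell markers were higher, 6 by at least 1.5-fold (median 1.10). Of 7 measured myeloid markers 5 were higher, 2 by at least 1.5-fold, and 2 were lower (median 0.22). Genes under the floor on both arrays, such as the tuft cell marker Pou2f3 (62.7 in control and 51.4 in knockout), are not in these counts. The part of these cell types in the Ephb3, Efnb2 and Epha2 values was not tested.

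**Figure D3:**
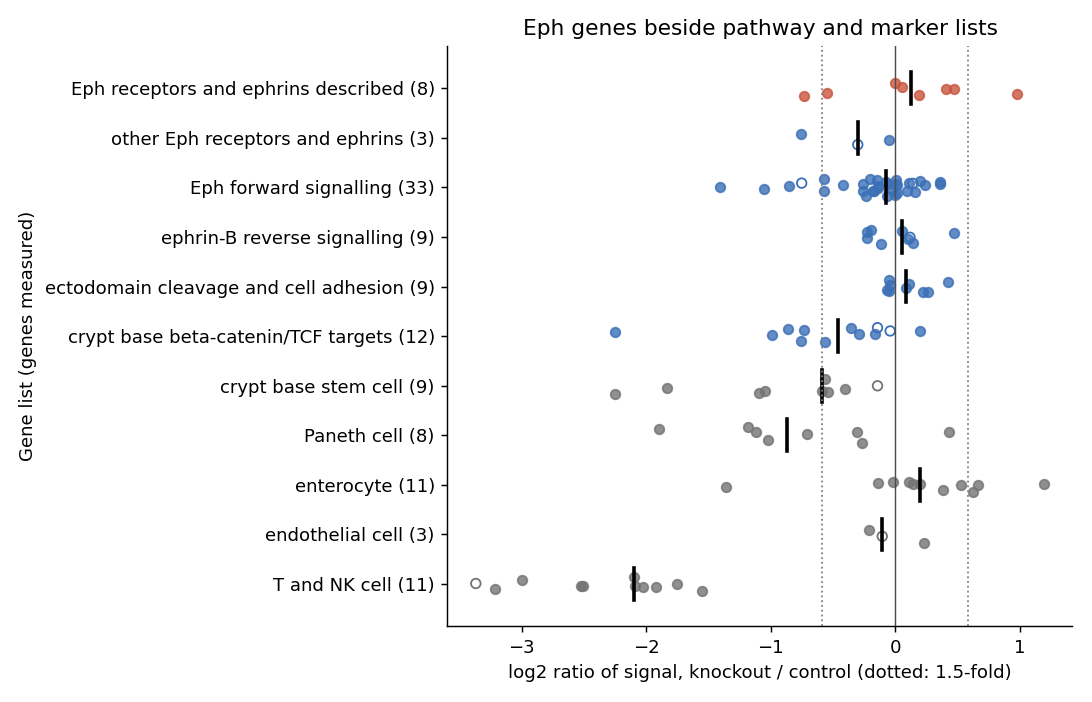
Log2 ratio of signal, knockout over control, of each measured gene (open where it is a bound), in the Eph genes (red), pathway lists (blue) and cell type marker lists (grey), with the median of each list as a black bar and 1.5-fold dotted. The Eph genes lie on both sides of 0 (median 0.12), the crypt base beta-catenin/TCF targets mostly below it (-0.46), and the T and NK markers all at least 2-fold below it (-2.10).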

How the data were processed

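Per the labels' protocols, total RNA of crypts was taken up in Trizol, and 5 mice per genotype were pooled. The authors deposited a linear intensity for each probe set, and the submitters' processing notes name MAS5, whose version was not stated. The series text names a smaller version of the array, but the 45101 probe sets match the annotation of the full one. After 64 control probe sets were set aside, probe sets with 1 gene symbol were used, with symbols updated through the RefSeq gene table (GRCm38.p6). Signals below the 50th percentile of both arrays (92.9) were raised to it before the log2 ratio, knockout over control, was taken. A gene above this floor on 1 array has a bound ("at least"). The probe set with the highest mean log2 signal stands for its gene, and every probe set of the Eph genes was examined. Fold counts use 1.5-fold and, where stated, 2-fold. Promoter sequences and gene order are from RefSeq. Named genes are all Eph genes and, of each pathway list, the 3 highest and 3 lowest, with a bound ranked at its limit. Further genes in the text are set beside these for comparison. The Eph genes and lists were chosen with earlier results of these data known. The calculation was tested on simulated data with planted differences of 2-fold or more in bright genes, so differences near 1.5-fold were not covered. It was run in Python 3.11.15 with pandas 2.3.3. Precision is limited by there being 1 array per genotype.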

Additional observations from a re-analysis of the deposited data

How the results depend on the processing

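No paired analysis was possible because the comparison has 1 array on each side, which also leaves none to omit. Under 8 planned settings (the floor at the 30th or 70th percentile, a pseudocount equal to the floor, quantile normalisation, lowess, the median of all genes set to 0, the mean over probe sets, and without _s_at and _x_at probe sets) the counts of Eph genes at least 1.5-fold lower and higher were 1 each throughout. Ephb3 and Epha2, the genes counted, have 1 probe set each, so averaging or dropping probe sets could not change their ratios. Both also lay above each floor tried. Only the pseudocount, quantile normalisation, lowess and the median setting moved these ratios. The median of the Eph genes stayed between 0.020 and 0.17. Ephb3 stayed between -0.74 and -0.62, Epha2 between 0.84 and 1.05, Efna4 between -0.55 and -0.42 and Efnb2 between 0.24 and 0.51. Efnb1 ran from -0.046 to 0.23. The same settings were extended to the pathway lists and to all genes after the data were seen. There the share of genes at least 1.5-fold lower ran from 4.35% to 12.6% and that of higher genes from 2.94% to 8.22%. Both lowest shares came from the pseudocount, which also counted genes under the floor on both arrays, Ephb6 among them. Among settings that counted measured genes only, the lowest shares were 5.21% and 3.71%, with the floor at the 70th percentile. The number at least 1.5-fold lower ran from 2 to 4 in forward signalling and from 0 to 4 in the other family members, where Efna3 was no longer counted with the floor at the 70th percentile or the pseudocount. The median of the beta-catenin/TCF targets ran from -0.65 to -0.34. Dim genes such as Ephb6 have no usable ratio.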

Other observations

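The genes Efna1, Efna3 and Efna4 follow each other in this order among protein-coding genes of mouse chromosome 3 in the RefSeq annotation, and the gene order was examined after their values were seen. Efna3 (364 in control and 216 in knockout, log2 ratio -0.75) and Efna4 (426 and 292, -0.55) were both lower in the knockout pool, whereas Efna1 was at 0.055. The difference of log2 ratios between Efna1 and Efna4 was 0.60, where the probe-set SD of a difference is 0.39. On the far side of Efna4, Adam15, a membrane metalloprotease gene, had 274 and 395 (log2 ratio 0.53), and on the far side of Efna1, Slc50a1, a sugar transporter gene, had 991 and 1120 (0.18). The lower readings of Efna3 and Efna4 thus stood between neighbours that were level or higher.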
